A study of Homo sapiens with 15 samples.

Results

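The promoters of 5 ETS transcription factor genes, ERG, ETV1, ETV4, ETV5 and FLI1, were followed through their chromatin loops in LNCaP cells given androgen. A loop is a pair of genomic anchors that were found in contact more often than their distance predicts. The loops of a gene are those with a 1 kb anchor that overlaps the window from 2.5 kb before to 2.5 kb after the start of its canonical transcript (Gencode release 44 lifted to hg19), each anchor pair counted once over the H3K27ac and the H3K4me3 loop sets. This gave 39 loops of the 505995 different loops in the series. ETV1 held 25 of them, ETV4 10, ETV5 2, and ERG and FLI1 1 each.

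The assay was HiChIP, where DNA ends that lie close together in fixed nuclei are ligated and the fragments that carry a histone mark are pulled down and sequenced as read pairs. LNCaP is an established androgen-dependent prostate cancer cell line whose androgen receptor carries a mutation in the ligand-binding domain. All cells, controls included, were kept for 3 days in phenol-red-free RPMI with charcoal-stripped serum, and then received 10 nM dihydrotestosterone (DHT), the ligand of the androgen receptor, for 30 m or for 4, 16 or 72 h, or ethanol as vehicle (0 m). The labels give 10 H3K27ac samples (2 replicates per time point) and 5 H3K4me3 samples (1 per time point). H3K27ac marks active enhancers and promoters, and H3K4me3 marks promoters. Each of the 10 tables, 1 for each mark and time, lists a single value for a loop. Replicate error could therefore not be estimated, and no test between times was possible. In a bulk sample, fewer cells with a contact and a weaker contact in each cell cannot be told apart. The files hold contacts and no expression, so cell identity was not checked against markers. All results come from a single cell line.

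ETS factors bind DNA through a shared domain that recognises a GGAA core. ERG and FLI1 form a closely related pair, and ETV1, ETV4 and ETV5 form the PEA3 group. In prostate cancer these genes are known as fusion partners: rearrangements place them under androgen-regulated promoters such as that of TMPRSS2, and the androgen receptor then drives their expression. LNCaP lacks the TMPRSS2-ERG fusion but is known to carry an ETV1 locus moved to another chromosome. Contacts across a chromosome boundary are outside these tables, which list 0 loops between chromosomes, and reads from a moved and an unmoved ETV1 copy cannot be told apart.

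Promoter windows of ETV1 and ERG are printed because CpG content differs widely among the starts of one gene, from 0 to 15 CpG over the ETV1 windows and from 2 to 44 over those of ERG. RefSeq promoter sequences (GRCh38.p14) were matched for ETV1 and ERG, 2 of the 5 genes, while ETV4, ETV5 and FLI1 were not matched. Each was placed on hg19 by an exact match, and the 250 bases before the start are given from 5′ to 3′ on the minus strand, with CpG dinucleotides in capitals. The first lies before the most upstream ETV1 start (chr7:14031051-14031300, 1759 bp from the canonical start), and the second directly before the canonical ERG start (chr21:39870402-39870651). The third lies before an ERG start 162190 bp further upstream (chr21:40032592-40032841). None of their bases lies in an annotated exon.
ETV1 upstream start: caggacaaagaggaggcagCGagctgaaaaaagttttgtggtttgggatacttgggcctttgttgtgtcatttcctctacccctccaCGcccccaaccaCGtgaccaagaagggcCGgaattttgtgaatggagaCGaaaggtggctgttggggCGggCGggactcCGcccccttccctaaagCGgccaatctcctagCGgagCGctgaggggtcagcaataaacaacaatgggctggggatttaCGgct
ERG canonical start: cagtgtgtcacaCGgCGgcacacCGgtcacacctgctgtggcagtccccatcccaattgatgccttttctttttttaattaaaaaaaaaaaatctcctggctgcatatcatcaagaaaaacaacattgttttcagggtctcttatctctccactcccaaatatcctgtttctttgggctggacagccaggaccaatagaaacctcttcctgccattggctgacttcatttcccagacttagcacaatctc
ERG upstream start: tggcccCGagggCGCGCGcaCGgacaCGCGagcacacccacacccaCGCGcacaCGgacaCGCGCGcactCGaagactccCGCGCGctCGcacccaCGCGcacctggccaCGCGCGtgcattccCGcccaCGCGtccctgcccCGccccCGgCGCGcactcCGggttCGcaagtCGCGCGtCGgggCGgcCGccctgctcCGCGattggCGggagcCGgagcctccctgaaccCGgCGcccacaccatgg
The ETV1 window held 12 CpG and the canonical ERG window 3, against a median of 11 over 35116 RefSeq promoter windows. The upstream ERG window held 44. All 3 windows were searched on both strands for the androgen response element (AGAACA and TGTTCT with 3 bases between them), the forkhead motif TGTTTAC and the ETS motif CCGGAAGT, with 0 matches. Of all windows, 0.00285% held the first motif, 2.98% the second and 3.42% the third.

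Recovered read pairs set the precision. Dividing each deposited value by its table's smallest step gave whole numbers throughout, which are the read pairs behind it. Over all loops there were 2475168 to 4308555 read pairs per table in H3K27ac and 2153262 to 10675614 in H3K4me3, the most at 4 h. The 95% intervals given here are exact, come from these read pairs and cover counting error only. PCR duplicates were removed by the authors, but read pairs are not counted by molecular identifiers. The contact of a promoter is the sum over its loops, in scaled signal, over windows of the same length for every gene. The marks were scaled separately, so that levels are ranked within a mark.

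ETV1 had by far the highest contact of the 5 genes in H3K27ac. Its mean summed H3K27ac contact over the 5 time points was 83.0, at the 89.8th percentile of the 16259 protein-coding promoters with a loop, while its number of loops was at the 56.9th. ETV4 followed with 19.4 (48.3th percentile), ETV5 with 3.39 (20.5th), FLI1 with 0.619 (7.43th) and ERG with 0.173 (2.61th). In H3K4me3 the means were 15.2 for ETV1 (33.9th percentile), 10.3 for ETV4 (29.2th), 1.64 for ETV5, 0.531 for FLI1 and 0.292 for ERG. The counting intervals of ETV1, ETV4 and ETV5 were apart in H3K27ac at every time point. Those of ETV5 and FLI1 overlapped at 4 h and 16 h, and those of FLI1 and ERG in every table. In H3K4me3 the intervals of ETV1 and ETV4 were apart only at 4 h and overlapped otherwise, while those of ETV4 and ETV5 overlapped only at 72 h.

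**Figure D1:**
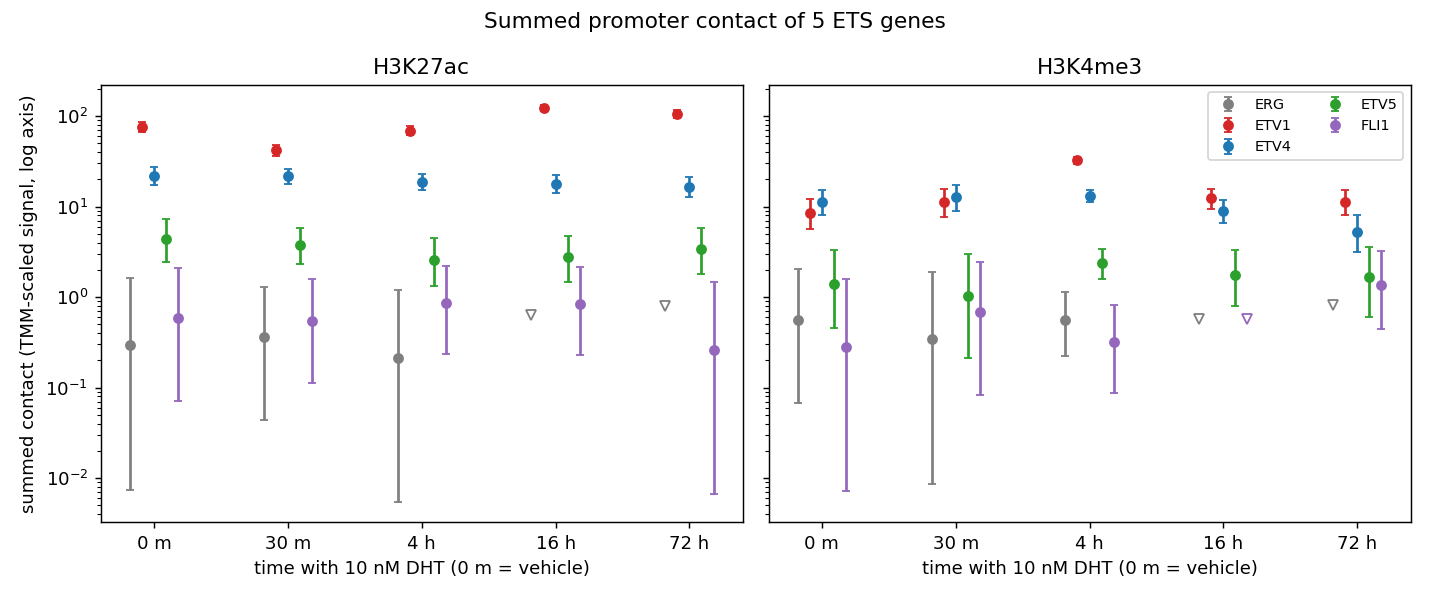
Summed promoter contact (scaled signal, log axis) of ERG, ETV1, ETV4, ETV5 and FLI1 at the 5 time points, H3K27ac on the left and H3K4me3 on the right. Points are the sums of the deposited values, bars are 95% counting intervals, and open triangles mark the contact of 3 read pairs, the limit used where 0 were found; ETV1 runs between 41.7 and 122.7 in H3K27ac and stands apart in H3K4me3 only at 4 h, at 32.4.

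The ETS family spans the whole range of promoter contact, and ETV5, FLI1 and ERG stand near its lower end. Of 28 ETS genes 26 had a promoter loop. ETV1 ranked 6 in H3K27ac, behind the epithelial factors ELF3 and EHF, ETV6, ELK4 and SPDEF, but 14 in H3K4me3. ETV4 ranked 13 and 18, ETV5 22 and 23, FLI1 25 and 24, and ERG 26 in both. The ratio of H3K27ac to H3K4me3 contact, as log2 of the means each with 1 added, was 2.38 for ETV1, higher than for 99.6% of promoters. It was higher than for 94.8% at ETV4 (0.86) and 93.7% at ETV5 (0.73), and the ratios of FLI1 and ERG rest on at most 14 read pairs a mark. These ratios set separately scaled marks side by side, so only their order among promoters is read.

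**Figure D2:**
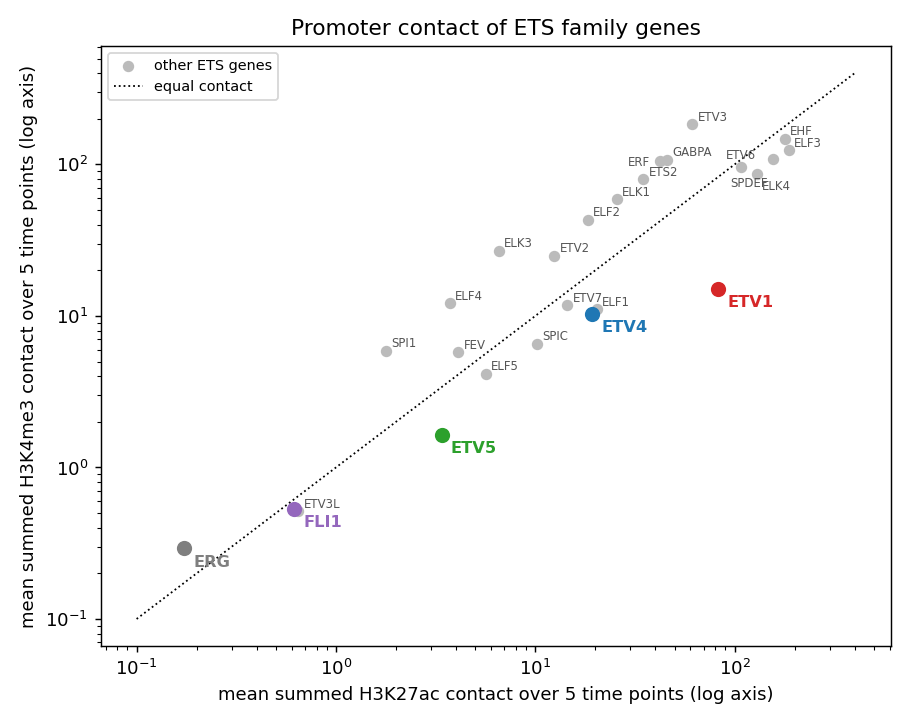
Mean summed promoter contact over 5 time points in H3K27ac (x, log axis) and H3K4me3 (y, log axis) for the 26 ETS genes with a loop; the dotted line marks equal values, on scales set separately per mark. ETV1 lies at 83.0 and 15.2, further to the right of the line than any other ETS gene, and ERG is the lowest in both marks.

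ETV1 encodes a PEA3-group activator and lies on the minus strand of chr7, with its canonical start at position 14029291 (ENSG00000006468). The median length of its 25 loops was 145 kb. The H3K27ac set held 19 of them and the H3K4me3 set 11, with 5 called in both. The 9 upstream partners lay 45 to 155 kb away where no gene is annotated. Downstream, 5 partners lay in introns of ETV1 itself and 10 in introns of the long non-coding RNA gene ENSG00000229618 at 345 to 705 kb. The gene body partners took 62.0 of the mean H3K27ac contact of 83.0, the upstream partners 14.7 and those in the non-coding RNA gene 6.12.

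A single loop of 5 kb carried most of this. It joins the promoter anchor (chr7:14027001-14028000) to an anchor in an ETV1 intron (chr7:14022001-14023000), between adjacent bins, the shortest distance called. It was the strongest ETV1 loop in all 10 tables. Its H3K27ac contact was 46.4 in vehicle and 23.6, 39.3, 88.3 and 70.0 at the successive DHT times, which was 56.5% to 72.0% of the ETV1 sum. In H3K4me3 it was 3.38 in vehicle and then 6.83, 17.5, 6.57 and 4.40. The next 4 loops by mean contact went to sites 50 kb upstream (chr7:14077001-14078000), 35 kb downstream in an ETV1 intron (chr7:13992001-13993000), 45 kb upstream (chr7:14072001-14073000) and 125 kb upstream (chr7:14152001-14153000). Their mean H3K27ac contacts over the 5 time points were 3.24, 2.98, 2.34 and 2.12, against 53.5 for the strongest loop.

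**Figure D3:**
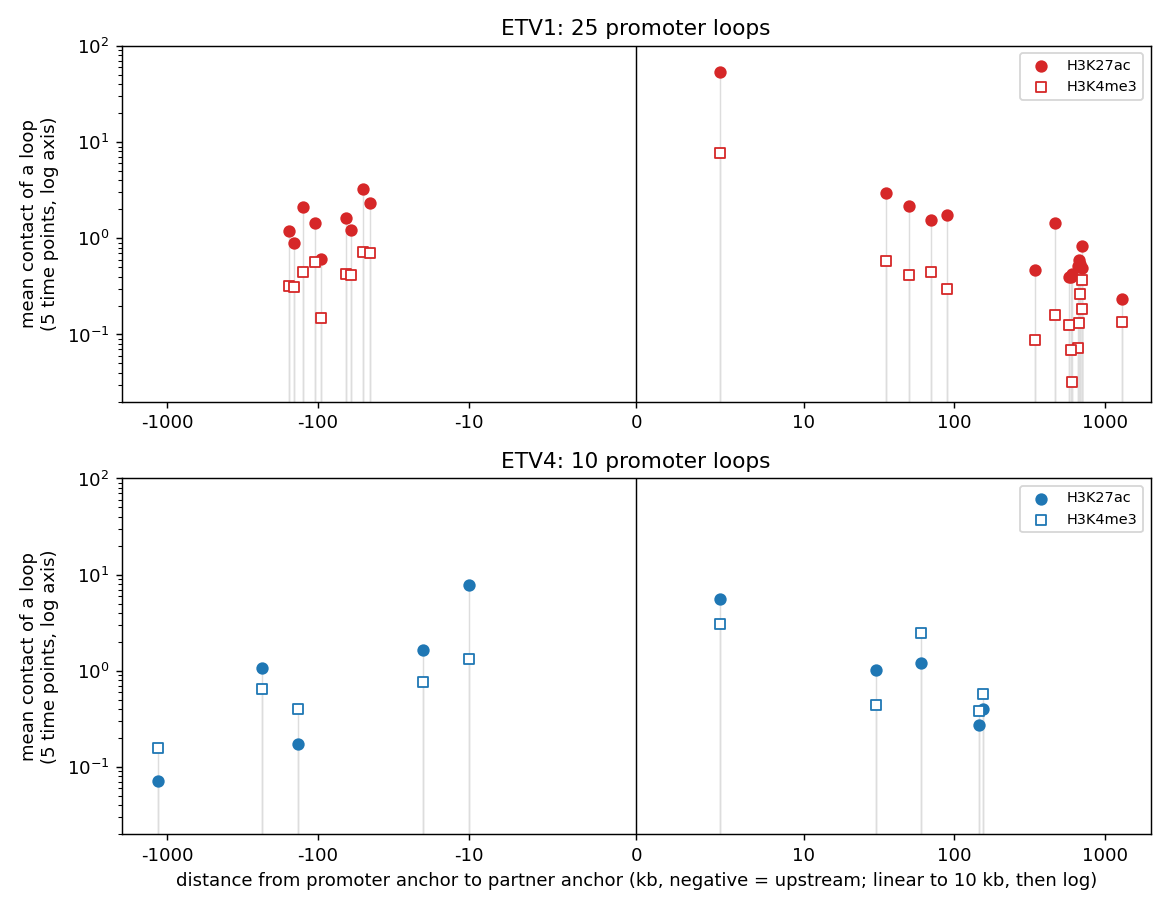
Mean contact of each loop over 5 time points (y, log axis) against the signed distance from the promoter anchor to its partner (x, kb, upstream negative, linear to 10 kb and then log), for the 25 loops of ETV1 and the 10 of ETV4, filled circles for H3K27ac and open squares for H3K4me3. The 5 kb loop of ETV1 stands at 53.5 in H3K27ac with no other ETV1 loop above 3.24, while the strongest ETV4 loops, at 10 kb and 5 kb, are close to each other.

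ETV1 H3K27ac contact fell at 30 m, returned by 4 h and was higher than at 0 m at 16 h and 72 h. Its sum was 76.4 in vehicle (260 read pairs) and then 41.7 (232), 69.0 (323), 122.7 (578) and 105.3 (400). The value at 30 m was the lowest of the 5 and the value at 16 h the highest, and neither interval overlapped that of vehicle (67.4 to 86.3). On the log2 scale the change from 0 m was -0.87 at 30 m (interval -1.13 to -0.61) and -0.15 at 4 h (-0.39 to 0.09). It was 0.68 at 16 h (0.47 to 0.90) and 0.46 at 72 h (0.23 to 0.69). All 4 share the 0 m table. From 30 m to 16 h contact rose 2.94-fold, a log2 change of 1.56 (1.33 to 1.78), which does not use 0 m.

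Most promoters did not move this way at 30 m. The median log2 change over promoters with at least 100 read pairs in the pair of tables was 0.29 at 30 m and 0.04, 0.20 and 0.21 at the later times. ETV1 lay at the 0.715th percentile of 10344 promoters at 30 m and at the 21.4th, 86.0th and 71.9th later. Of the members only ETV1 and ETV4 reached 100 read pairs. Past a fold of 1.5, ETV1 was lower at 30 m, as were 2.06% of promoters, while 19.7% were higher. It was higher at 16 h, as were 19.9%, while 4.8% were lower, so that a rise past the fold at 16 h was not rare. Neither ETV1 nor ETV4 passed the fold at 4 h, where 2.08% of promoters were higher and 0.688% lower, or at 72 h, where 18.9% were higher and 3.86% lower. With read pairs scaled to equal totals per table the ETV1 changes were -0.96, -0.22, 0.44 and 0.29, and the rise at 16 h no longer passed the fold. Nor did it without the strongest loop.

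The fall at 30 m was in the 5 kb loop and in the sum of the others, and the rise at 16 h was mostly in the 5 kb loop. At 30 m the 5 kb loop changed by -0.98 (interval -1.32 to -0.63) and the other 24 loops together by -0.72 (-1.13 to -0.31). At 16 h the 5 kb loop changed by 0.93 (0.66 to 1.20) and the other 24 by 0.20 (-0.17 to 0.57). At 72 h the 5 kb loop changed by 0.59 (0.30 to 0.89) and the other 24 by 0.23 (-0.15 to 0.62). From 30 m to 16 h both moved, the 5 kb loop by 1.91 (1.62 to 2.20) and the others by 0.92 (0.55 to 1.29). The rise of the 5 kb loop at 16 h was near the median of loops of its kind with many read pairs. Among 6651 loops between adjacent bins with at least 100 read pairs the median log2 change was 0.89, and the ETV1 loop lay at the 52.1th percentile. Among 6289 such loops at 30 m the median was 0.45 and the ETV1 loop lay at the 1.02th percentile. With a minimum of 20 read pairs the median at 16 h was 0.43 over 22881 loops, and the ETV1 loop lay at the 73.6th percentile. Both minimums count the 2 tables compared.

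**Figure D4:**
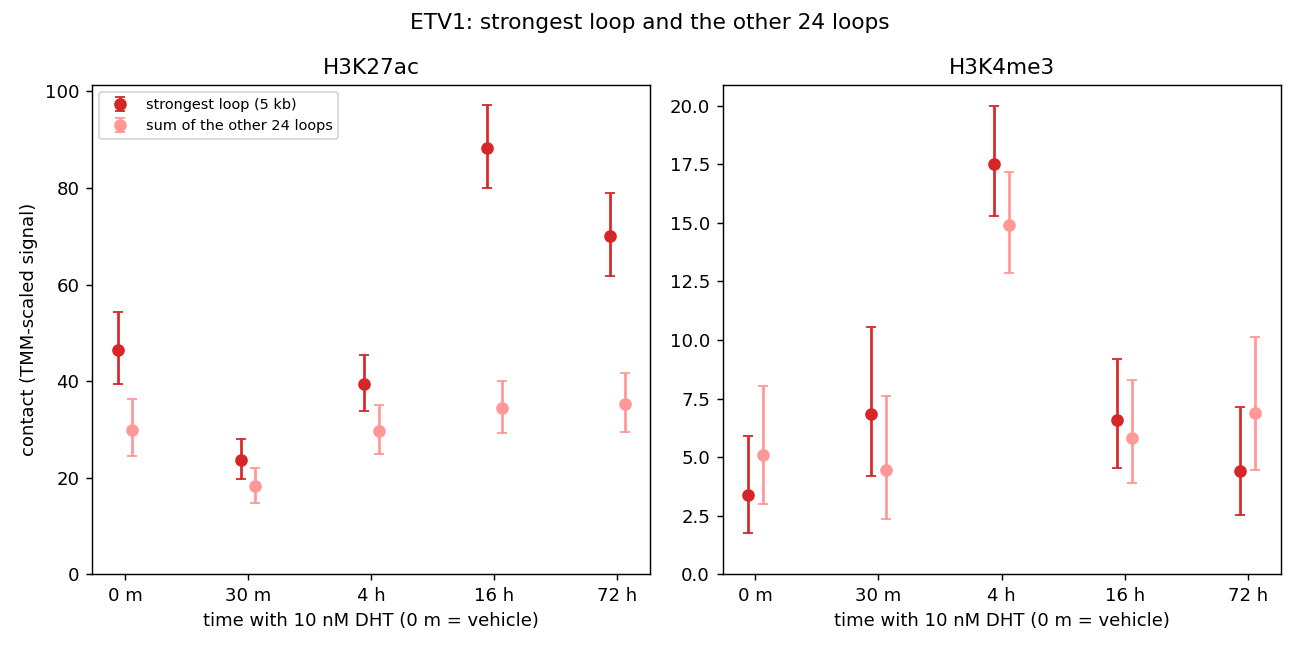
Contact (scaled signal, axis from 0) of the 5 kb ETV1 loop and of the sum of the other 24 ETV1 loops at 5 time points, H3K27ac left and H3K4me3 right, with 95% counting intervals. In H3K27ac both are lowest at 30 m and the 5 kb loop reaches 88.3 at 16 h; in H3K4me3 both are highest at 4 h.

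Base composition moved with the fall at 30 m. The bins of the ETV1 loops are AT-rich, with a contact-weighted GC content of 35.9%, lower than at all but 0.258% of promoters, against a median of 47.7%. Over promoters whose loops had a GC content of 35% to 38% the median H3K27ac change at 30 m was -0.31 (40 promoters), and it rose with GC to 0.40 at 50% to 55% (2530 promoters). Among 11 promoters within 1 percentage point of ETV1 the median was -0.30 (quartiles -0.46 and 0.02), and ETV1 was below all 11. Among 65 adjacent-bin loops of like GC and at least 100 read pairs the median was -0.60, with 9 lower than the ETV1 loop. At 16 h the median of 12 promoters of like GC was 0.17, and ETV1 was above 11 of them. Among 123 adjacent-bin loops of like GC and at least 100 read pairs the median at 16 h was 0.72, with 72 lower than the ETV1 loop and 51 higher. The 20 other loops of the ETV1 gene, which do not touch its promoter, changed by -0.57 at 30 m (interval -0.97 to -0.17) and by 0.25 at 16 h (-0.12 to 0.61). The part of base composition in the ETV1 values was not tested.

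**Figure D5:**
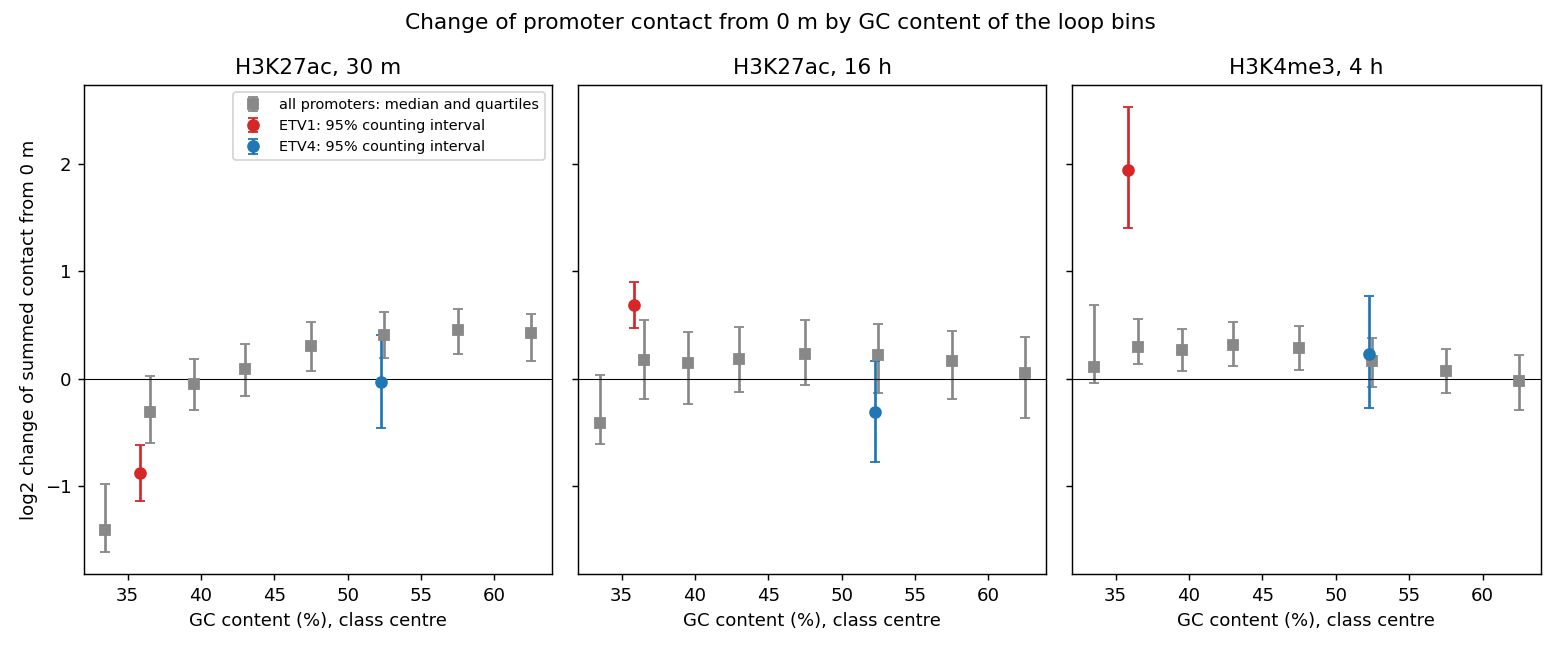
Log2 change of summed promoter contact from 0 m (y) by GC content of the loop bins (x, %, class centres, the outer classes open-ended) for H3K27ac at 30 m and 16 h and H3K4me3 at 4 h. Grey squares are medians of all promoters with their quartiles, and ETV1 and ETV4 are drawn with 95% counting intervals; at 30 m the medians rise with GC up to 60% and ETV1 is at -0.87, and at 4 h in H3K4me3 ETV1 is at 1.94, drawn among promoters whose minimum it met only through its 4 h read pairs.

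H3K4me3 contact of ETV1 was highest at 4 h. Its sum was 8.46 in vehicle and 11.3, 32.4, 12.4 and 11.3 with DHT, from 30, 33, 409, 64 and 41 read pairs. The 4 h interval (29.3 to 35.7) lay above those of the other 4 time points, which overlapped one another. The log2 change from 0 m was 1.94 (1.40 to 2.52) at 4 h. It was 0.41 (-0.34 to 1.18) at 30 m, 0.55 (-0.10 to 1.22) at 16 h and 0.41 (-0.30 to 1.14) at 72 h. ETV1 reached 100 read pairs over these 2 tables only through its 4 h value, so that its place among promoters kept by that minimum is not given. Of the 12370 promoters that met it, 14.3% were higher past a fold of 1.5 and 1.77% lower. A minimum of 100 read pairs over the 3 H3K4me3 tables that this comparison does not use, chosen after the data were seen, was met by ETV1 with 138 and by 11845 promoters in all. Their median was 0.23, and ETV1 lay at the 99.9th percentile. From 30 m to 4 h the change was 1.52 (1.01 to 2.08), again without the 0 m table. With equal totals the change from 0 m was 1.71.

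The H3K4me3 rise at 4 h was in the 5 kb loop and in the sum of the others. Single loops are too thin for a count of directions, since only 12 of the 25 had a read pair at 0 m and 24 at 4 h, the deepest table. The 5 kb loop changed by 2.37 (1.54 to 3.35) and the other 24 together by 1.55 (0.85 to 2.34). The loop to the intron 35 kb downstream had 1 read pair at 0 m and 23 at 4 h, a scaled change of 2.69 (0.07 to 8.06). That to the site 50 kb upstream had 5 and 10, a scaled change of -0.83 (-2.51 to 1.07). The 20 other loops of the gene changed by 0.28 (-0.64 to 1.33), from 12 and 52 read pairs. Among 13 promoters of like GC kept by the minimum over the other 3 tables the median was 0.35, and ETV1 was above all 13. Among 16 adjacent-bin loops of like GC and at least 100 read pairs over the 2 tables compared the median was 0.88. The 5 kb loop met that minimum only through its 4 h value, so its place among them is not given. The part of depth in the ETV1 value was not tested.

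ETV4, a PEA3-group factor on the minus strand of chr17 with its start at 41623708 (ENSG00000175832), had contact near the middle of all promoters in H3K27ac and lower in H3K4me3, and the intervals of its 4 H3K27ac changes from 0 m, as deposited, included 0. Its H3K27ac sum was 22.0 in vehicle and 21.6, 18.8, 17.8 and 16.6 with DHT. The log2 changes were -0.03, -0.23, -0.31 and -0.41, with an interval at 72 h of -0.92 to 0.09. With equal totals they were -0.12, -0.30, -0.55 and -0.58, and the intervals at 16 h and 72 h then lay below 0. They lay at the 20.3th, 13.0th, 14.3th and 8.03th percentiles of promoters. Among promoters within 1 percentage point of its GC content of 52.3% they lay at the 10.5th, 5.24th, 13.5th and 7.20th. In H3K4me3 the sum was 11.3, 12.6, 13.2, 8.89 and 5.22 at the 5 time points, from 40, 37, 167, 46 and 19 read pairs. At 4 h the change was 0.23 (-0.28 to 0.77), at the 50.1th percentile of promoters by the minimum over the other 3 tables. At 72 h it was -1.11 (-1.98 to -0.29), below the 100 read pairs set for calls. By the minimum over the other 3 tables it lay at the 0.212th percentile of 12754 promoters, whose median was -0.15 and of which 6.37% were lower past the fold. Of 1239 promoters of like GC 1 was lower and 1238 higher. Their median was -0.28, close to the upper limit of the ETV4 interval of -0.29. At 16 h, where the change of -0.34 had an interval that included 0, it lay at the 3.22th percentile of 12611.

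The ETV4 loops were more even than those of ETV1 and reached other promoters. They were 5 upstream and 5 downstream. The H3K27ac set held 4 and the H3K4me3 set 6, with none called in both. The 5 strongest went 10 kb upstream (chr17:41632001-41633000) and 5 kb downstream (chr17:41617001-41618000), both in ETV4 introns that overlap DHX8, 60 kb downstream to the promoter of DHX8, an RNA helicase gene of splicing (chr17:41562001-41563000), 20 kb upstream (chr17:41642001-41643000), and 235 kb upstream to the shared promoter region of DUSP3, a phosphatase gene, and CFAP97D1 (chr17:41857001-41858000). The 10 kb loop had an H3K27ac contact of 8.52, 10.8, 6.20, 8.70 and 5.26 at the 5 time points and the 5 kb loop of 6.46, 5.40, 6.20, 4.03 and 6.05. In H3K4me3 the 5 kb loop was the strongest at the first 4 time points, with 3.95, 4.10, 3.41 and 2.90, and at 72 h it stood at 1.10 and the DHX8 loop at 1.65. Single ETV4 loops rest on at most 60 read pairs a table. A weaker loop reached the promoter of CCDC43 at 1145 kb. The 39 other loops of the ETV4 gene, which do not touch this promoter, changed in H3K27ac by 0.45 at 30 m (0.19 to 0.71) and by -0.31 at 16 h (-0.61 to -0.01).

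ETV5, the remaining PEA3-group gene (minus strand of chr3, start at 185826878, ENSG00000244405), had 2 short loops, both in both loop sets. They ran 10 kb downstream into its own intron (chr3:185817001-185818000) and 15 kb upstream into an intron of DGKG, a diacylglycerol kinase gene (chr3:185842001-185843000). Their summed H3K27ac contact was 4.41, 3.78, 2.56, 2.76 and 3.42 at the 5 time points, from 12 to 21 read pairs, and the H3K4me3 contact 1.41, 1.02, 2.38, 1.74 and 1.65, from 3 to 30. The intervals of all 8 changes from 0 m included 0, for example -0.68 (-1.87 to 0.50) for H3K27ac at 16 h and 0.75 (-0.63 to 2.48) for H3K4me3 at 4 h. Of the single loops, that into the ETV5 intron had 11 read pairs at 0 m and 4 at 16 h in H3K27ac, a change of -1.93 (-4.03 to -0.17), and that into DGKG had 4 and 9.

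FLI1, the ERG-related gene on the plus strand of chr11 (start at 128563967, ENSG00000151702), had a single loop in the H3K4me3 set, 5 kb upstream to an anchor in a FLI1 intron (chr11:128557001-128558000). The same loop also counts for an upstream FLI1 start at 128556430, whose window overlaps the partner anchor. It held 2, 3, 4, 4 and 1 read pairs in H3K27ac and 1, 2, 4, 0 and 5 in H3K4me3, and the intervals of all its changes from 0 m included 0. Between 16 h and 72 h, the H3K4me3 change from 0 to 5 read pairs had a lower limit of 0.38 on the log2 scale. The whole FLI1 gene had 2 loops, with 24 H3K27ac and 13 H3K4me3 read pairs in all. ETS1, its neighbour and paralog 106.5 kb away, had 0 promoter loops, so none joined the pair.

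ERG, the most frequent fusion partner in prostate cancer (minus strand of chr21, start at 39870401, ENSG00000157554), had a single H3K4me3 loop, 685 kb upstream to an anchor at the promoter of PSMG1, a proteasome assembly gene, and in an exon of BRWD1 (chr21:40557001-40558000). It held 1, 2, 1, 0 and 0 read pairs in H3K27ac and 2, 1, 7, 0 and 0 in H3K4me3. The 0 read pairs at 16 h allow a contact of up to 0.637 in H3K27ac and 0.580 in H3K4me3, taking a count of 3 per table as the limit for a count of 0, which is above the contact at 0 m of 0.294 and 0.564. No change from 0 m was therefore detectable at 16 h. The gene was not without contacts: 33 loops touched the ERG gene body, with 786 H3K27ac and 389 H3K4me3 read pairs over the 5 time points. The 32 that miss the promoter had an H3K27ac contact of 31.1 in vehicle and 36.7, 37.2, 36.1 and 33.7 with DHT, and all intervals of their changes included 0. The upstream start cluster with the CpG-rich sequence printed above had 1 loop with 4 H3K27ac and 3 H3K4me3 read pairs, and the cluster between them had 0. No loop joined the ERG promoter to that of its neighbour ETS2, 307.5 kb away, which had 44 loops. TMPRSS2 lies 3009.7 kb from ERG, beyond the longest loop called of 3000000 bp, so such a contact could not be listed.

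The other ETS genes are given for the comparisons in which ETV1 passed the fold, which were chosen for ETV1. Of 23 others, 21 had loops. In H3K27ac at 30 m 0 of 15 with 100 read pairs passed the fold either way, against 19.7% of all promoters higher and 2.06% lower, with a median of 0.21 and a lowest value of -0.52 at EHF. In H3K4me3 at 4 h 3 of 17 were higher (ELK3, ETS2 and ETV6) and 0 lower, against 14.3% and 1.77% of all promoters, with a median of 0.14 and a highest value of 1.02 at ETS2. In H3K27ac at 16 h 4 of 13 were higher (ELF3, ETV3, ETV6 and ETV7) and 0 lower, against 19.9% and 4.8%, with a median of 0.43 and a highest value of 0.93 at ETV7, above that of ETV1. No test of these differences was possible.

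The 39 partner bins of 5 kb were searched for the same 3 motifs. The androgen response element was in 0, and it is in 0.104% of the 210061 anchor bins of the series. The forkhead motif was in 22 (56.4%, against 53.3% of all anchor bins) and the ETS motif in 4 (10.3%, against 3.16%). Among these were the ETV1 partner 35 kb downstream and the ETV4 partners at DHX8 and 135 kb upstream. The partner bin of the 5 kb ETV1 loop held none of the 3 motifs. A match is a string of letters and not a bound site.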

How the data were processed

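The authors trimmed reads with Trim Galore 0.5.0, aligned them to hg19 and removed duplicates with HiC-Pro 3.1.0, and called loops with FitHiChIP in 5 kb bins on the merged data of a mark. The deposited values are contact signal, taken from binned maps with Cooler and TMM-scaled within each mark. Whether 1 or both H3K27ac replicates entered a value is not given in the sources used here.

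Read pairs were recovered as value over step (100% whole within 0.001). Loops with an anchor overlapping a promoter window were summed per gene. Changes are ratios of these sums with exact conditional binomial 95% intervals. Calls need 100 read pairs over both tables and a fold of 1.5. GC content was read from GRCh37. The 5 genes, the list of 23 other ETS genes and the alternatives were chosen with earlier results of these data known. Named loops are the 5 strongest per gene by mean value. No gene reached 100 read pairs in every table, so no genes of like pattern are named. The comparison by GC content, the minimum over the other 3 tables and the setting without the strongest loop were added after the data were seen. Methods were tested on simulated data. Python 3.11.15, numpy 2.4.6, pandas 2.3.3, scipy 1.17.1 and matplotlib 3.10.9 were used. Some loop partners of ETV1 and ETV4 are not reported here.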

Additional observations from a re-analysis of the deposited data

Results flagged for a closer look

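ETV1 H3K27ac contact went opposite ways from 0 m at different times of DHT, with counting intervals that exclude 0 on both sides: the log2 change was -0.87 at 30 m, against 0.68 at 16 h and 0.46 at 72 h. The difference between these changes was not tested across replicates, since each rests on 1 deposited value per loop, and all share the 0 m table. Without the strongest loop the change was -0.72 (-1.13 to -0.31) at 30 m, 0.20 (-0.17 to 0.57) at 16 h and 0.23 (-0.15 to 0.62) at 72 h. Only the interval at 30 m then excluded 0.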

How the results depend on the processing

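The 12 results, the number of loops of the 5 genes and their log2 change at 16 h where both tables held a read pair, were given 35 alternative values. Of these, 31 stayed within the counting interval or within 1.5 times the count and 4 moved. The ETV4 H3K4me3 change at 16 h, -0.34, changed sign with the loops of the own set, to 0.0076, and both intervals include 0. The ETV1 H3K27ac change at 16 h, 0.68, was 0.44 with equal totals and 0.20 with loops of at least 20 kb, which by construction are the loops left without the strongest one (0.20, chosen after seeing the data). ERG had 2 loops with all protein-coding starts. With the loops of the own set the ETV1 H3K4me3 change at 16 h was 0.88 (interval 0.09 to 1.72), and with equal totals the ETV4 H3K27ac change was -0.55 (-1.02 to -0.08). No change at 16 h can be given for ERG in either mark or FLI1 in H3K4me3, which had 0 read pairs, and none for ETV5 and FLI1 with loops of at least 20 kb or FLI1 H3K27ac with loops of its own set, which had no loops. No paired analysis was possible because the deposited tables do not separate replicates, which also left no replicate to leave out, and no result comes from a test. Depth limits ERG, FLI1 and ETV5, with 0 to 30 read pairs a table.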
